A study of Rattus norvegicus with 24 samples.

Results

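The genes described here are the heat shock and DnaJ chaperones of rat dorsal root ganglion (DRG) neurons. They were chosen by name and level alone: every gene whose symbol began with Hsp or Dnaj and whose mean over all neurons that passed quality control reached 1 CPM, the UMI count of a gene per 1000000 UMIs of the cell or sample (a UMI, or unique molecular identifier, marks 1 captured RNA molecule). Of 73 such symbols among the 32883 genes of the count tables, 67 qualified. Grouped by symbol alone, they included 3 Hsp90 genes, 12 Hspa (Hsp70) genes, Hsph1 (Hsp110) and 6 Hspb (small heat shock protein) genes. The others were the chaperonin pair Hspd1 and Hspe1, the binding proteins Hspbp1 and Hspbap1, and 41 DnaJ genes. Just inside the limit lay Hspa12b at 2.64 CPM, Hspb2 at 1.14 CPM and Hspb3 at 1.08 CPM. Just outside lay Dnajc5b at 0.426 CPM, Dnajb7 at 0.319 CPM and Hspb7 at 0.262 CPM.

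Chaperones hold newly made or damaged proteins until they fold or are handed to degradation. Hsp70 proteins do so in cycles of ATP hydrolysis, DnaJ proteins start the cycle and choose the client, Hsp110 exchanges the nucleotide, Hsp90 completes the folding of kinases and receptors, and small heat shock proteins keep unfolded chains from clumping without using ATP. Part of the family is switched on by heat shock factor 1 through heat shock elements in the promoter, another part by the unfolded protein response of the endoplasmic reticulum (ER). In sensory neurons Hspb1 (Hsp27) is best known for its link to survival after axotomy and for mutations that cause inherited axonal neuropathy.

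The study used male Sprague-Dawley rats of about 200 g, a weight that stands in the labels. In spared nerve crush (SNC) the tibial and common peroneal branches of the left sciatic nerve were crushed and the sural branch was left whole, and in sham rats the nerve was only exposed. Dyes had been injected into the branches 2 weeks before surgery, and single dye-labelled L4 and L5 neurons were picked by hand after enzymatic dissociation and sequenced from the 3′ end with UMIs. The labelled neurons formed 16 DRG samples: 4 sham (named Xin, 4, 10 and 18, with no day given), 4 at 1 day, 3 at 3 days and 5 at 7 days after SNC. A further 7 libraries, added later to the series and called added sham here, are marked as sham of day 0 (S1, S2 and S7), day 1 (S3 and S6), day 3 (S4) and day 7 (S5). Their labels name the tissue and neurons but give no numbers of crushed and spared cells. Within an SNC sample crushed and spared neurons were pooled, because the cell names do not carry the dye. Labelled and added libraries differed as whole sets, so choice of neurons, dye, surgery, handling and sequencing batch cannot be told apart between them. Beside its dye-labelled neurons the paper lists further DRG neurons, used for subtype annotation and proportions over time. The labels do not say whether the added libraries hold those neurons or were dye-labelled. Every sample can hold neurons of more than 1 rat, and p-values measure the spread between samples only.

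Of 1464 cells, 1433 passed quality control, 930 labelled and 503 added, and no cell carried the values of another. UMIs summed per sample ranged from 4002564 to 28976434 in labelled samples and from 14004381 to 40733436 in added libraries. Several libraries stood apart. Sham sample Xin held 24 cells and the fewest UMIs. Added libraries S1 and S2 held 0 NF-like neurons (neurons named further on from Nefh and other markers). In the other 5 added libraries NF-like neurons made up 7.37% to 51.2% of the cells. The summed CPM of 9 glial marker genes was 145 and 190 in S1 and S2, against 1018 to 1614 in the other 5. Sprr1a, an injury gene that uninjured neurons hardly transcribe, had 37925 UMIs in 788 of the 930 labelled cells and 6 UMIs in 1 of the 503 added cells. In the labelled sham samples themselves 78 of 215 neurons reached 100 CPM of Sprr1a, although their nerves had not been crushed.

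Promoters show which parts of the family share regulatory sequence. For 53 of the 67 genes RefSeq (assembly GRCr8) gave a start site and the 250 bases before it. A pair of facing heat shock units, GAA and TTC in either order with any 2 bases between, was present in 14 of these 53 windows (26.4%) against 13.2% of the 27457 promoters of the same length. A row of 3 such alternating units, each 2 bases from the next, holds the pair and was present in Hspa8, Hspd1, Hsph1 and Hspe1 (7.55%) against 0.597% of all promoters. The ER stress element, CCAAT followed by any 9 bases and CCACG and read on both strands like the others, was present in Hspa5, Hsp90b1 and Dnajc3 (5.66%) against 0.0765%. The 4 promoters printed here are those of the gene with the widest difference between the sham sets (Hspb1), of genes with a row of 3 units that differed in opposite directions (Hsph1 and Hspa8), and of the ER chaperone Hspa5 (BiP), whose level stayed in a narrow range. They run 5′ to 3′ on the gene's strand, and capitals mark the matched motifs. Hspb1 lies at chr12:26432302-26432551 on the minus strand, Hsph1 at chr12:10427118-10427367, Hspa8 at chr8:50080264-50080513 and Hspa5 at chr3:38452766-38453015, all 3 on the plus strand.
Hspb1: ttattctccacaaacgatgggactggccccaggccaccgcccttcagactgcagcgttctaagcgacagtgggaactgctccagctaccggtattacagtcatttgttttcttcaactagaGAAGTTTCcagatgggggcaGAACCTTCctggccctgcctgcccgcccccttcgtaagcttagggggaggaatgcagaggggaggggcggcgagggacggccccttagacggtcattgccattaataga
Hsph1: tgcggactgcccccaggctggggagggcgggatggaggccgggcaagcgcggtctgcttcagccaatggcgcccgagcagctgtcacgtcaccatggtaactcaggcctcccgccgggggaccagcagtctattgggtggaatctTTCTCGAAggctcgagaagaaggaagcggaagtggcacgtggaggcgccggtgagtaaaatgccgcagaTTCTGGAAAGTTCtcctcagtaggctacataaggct
Hspa8: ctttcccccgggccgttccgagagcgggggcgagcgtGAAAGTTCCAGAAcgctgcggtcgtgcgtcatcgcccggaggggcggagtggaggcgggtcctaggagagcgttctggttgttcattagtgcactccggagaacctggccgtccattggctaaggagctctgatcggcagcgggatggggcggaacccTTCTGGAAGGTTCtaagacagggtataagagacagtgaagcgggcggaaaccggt
Hspa5: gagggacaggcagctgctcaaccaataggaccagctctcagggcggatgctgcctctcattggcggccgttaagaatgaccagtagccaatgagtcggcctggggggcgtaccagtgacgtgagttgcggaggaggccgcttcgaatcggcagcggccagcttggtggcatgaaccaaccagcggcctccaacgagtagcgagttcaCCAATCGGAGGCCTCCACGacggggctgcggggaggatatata
The Hspb1 matches began 129 and 109 bases before the start site. Those of Hspa8 formed 2 rows that began 213 and 55 bases before it, and Hsph1 had a single pair 105 bases before it and a row 36 bases before it. Hspa5 had its ER stress element 43 bases before the start. A match is a description of the letters and says nothing of binding.

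Because each UMI stands for 1 captured 3′ end, levels of different genes were compared without division by length. The cytosolic Hsp90 gene Hsp90ab1 had the highest mean over cells at 2148 CPM, followed by Hspb1 at 1841 CPM, the constitutive Hsp70 gene Hspa8 at 922 CPM, the small heat shock protein Hspb8 at 492 CPM and Dnaja1, a cytosolic Hsp70 partner, at 491 CPM. The mitochondrial chaperonin Hspd1 (412 CPM), BiP (Hspa5, 377 CPM), Hsph1 (302 CPM), the ER Hsp90 gene Hsp90b1 (289 CPM), Hspa12a (284 CPM), Dnaja2 (282 CPM), Hspbp1 (259 CPM), Hspa4 (233 CPM), Dnajc7 (227 CPM) and the ER reductase Dnajc10 (221 CPM) completed the 15 highest. The classical heat-inducible forms were low: Hspa1b had a mean of 62.6 CPM and Hsp90aa1 of 10.9 CPM. Reads of Hspa1b are uncertain, since its near-identical copy Hspa1a was not among the genes analysed.

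The family took a share of the RNA that varied little within groups and was higher in every labelled than in every added sham sample. Its 67 genes held 1.09% to 1.19% of all UMIs in the 4 labelled sham samples, 1.04% to 1.17% in the 12 SNC samples and 0.991% to 1.05% in the 7 added sham libraries. Without Hspb1 the ranges overlapped, at 0.905% to 0.989%, 0.86% to 0.975% and 0.941% to 0.985%.

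**Figure D1:**
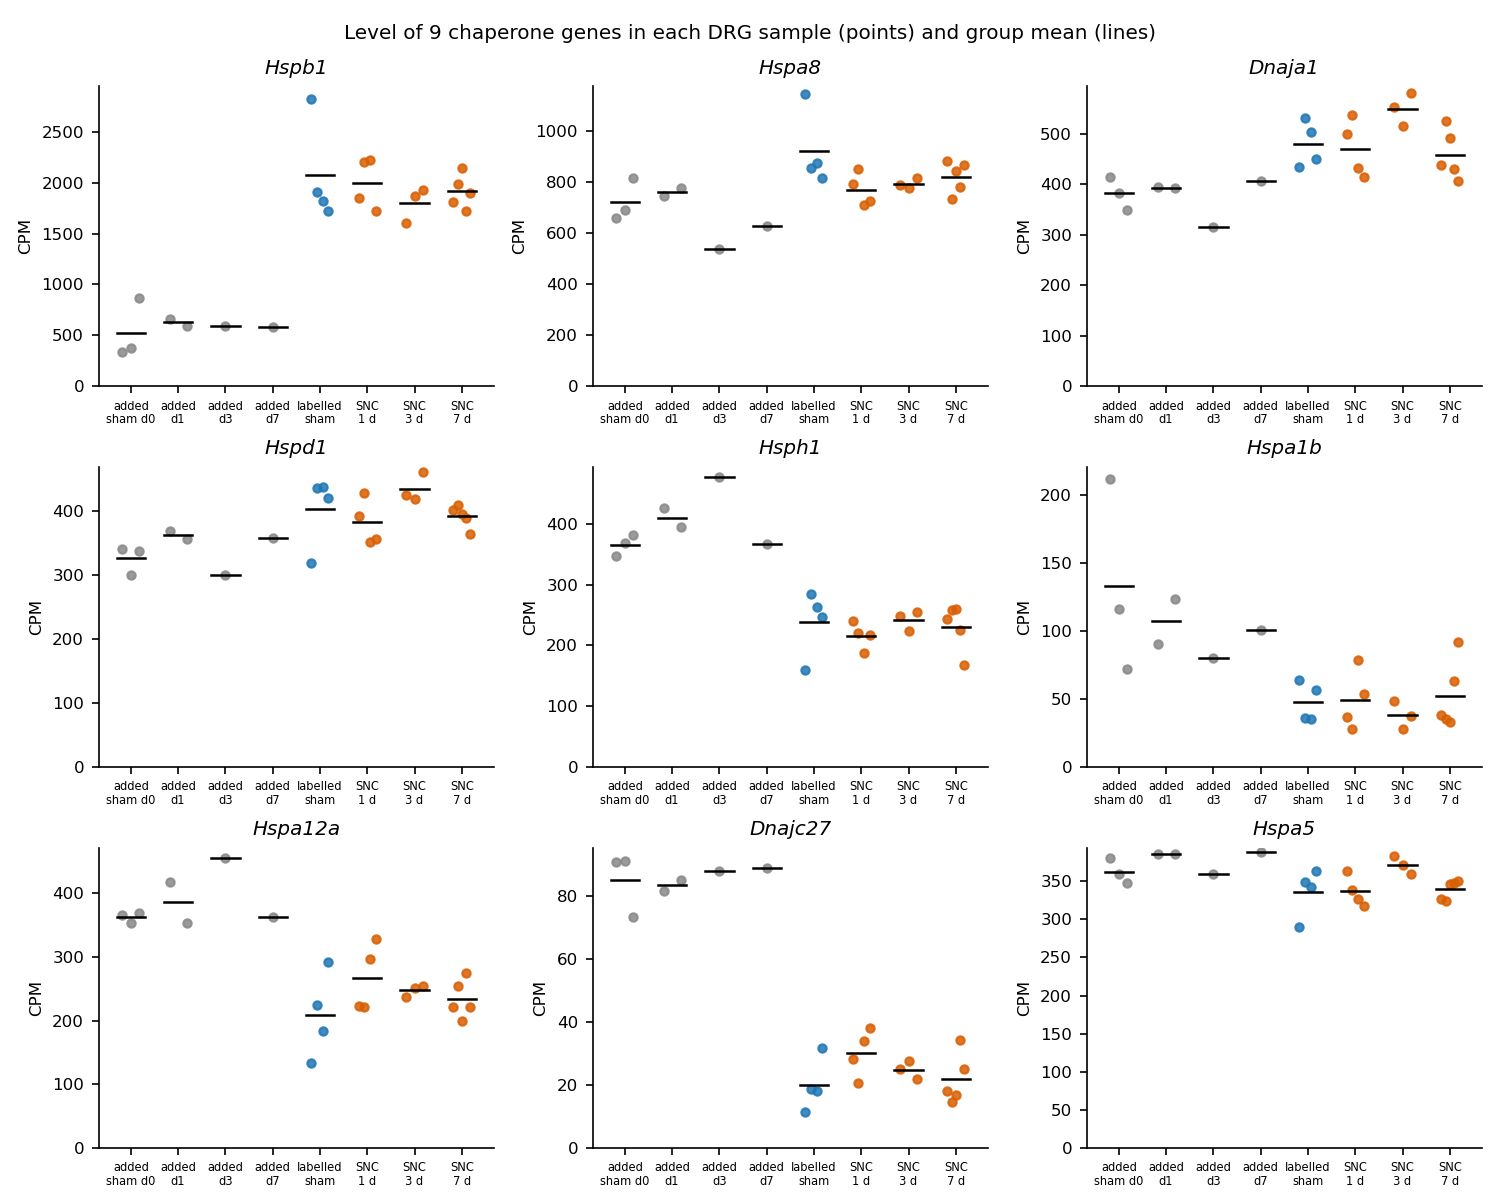
Level in CPM (vertical axis, starting at 0) of 9 chaperone genes in each sample (points) with the group mean (lines), for added sham by day (grey), labelled sham (blue) and SNC at 1, 3 and 7 days (orange). Hspb1 lies between 331 and 866 CPM in added sham and between 1725 and 2830 CPM in labelled sham, while Hspa5 covers 348 to 389 CPM and 291 to 363 CPM.

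Labelled sham neurons were compared with added sham neurons to see how far the chaperones of neurons from uncrushed nerves differ between the 2 sets. Hspb1 differed most. Its level was 2830, 1915, 1823 and 1725 CPM in labelled sham samples Xin, 4, 10 and 18. In the added libraries S1 to S7 it was 331, 371, 662, 590, 579, 590 and 866 CPM. The gap between the lowest labelled and the highest added value was wider than the range of the added values, and the 12 SNC samples, at 1601 to 2230 CPM, sat with the labelled sham. The log2 fold change of labelled minus added sham was 2.01 ± 0.22 (SE, n = 4 and 7; edgeR's quasi-likelihood test, Benjamini-Hochberg adjusted p = 7.61e-05), a 4.02-fold difference.

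The rest of the family split in both directions. With 23 of 67 genes called at an adjusted p of 0.05, 12 higher and 11 lower in labelled sham, the share was below that of all genes, of which 40.6% were called, 16.5% higher and 24.2% lower. The median log2 fold change was 0.08 over the 67 genes and -0.15 over all 15793 genes tested. The split depends on the weight of cells: limma on means over cells, in which each cell counts the same, called 4 higher and 20 lower and moved the median of all genes to -0.26 and that of the chaperones to -0.29. The CPM of the groups did not overlap for 16 of the 67 genes, 6 higher and 10 lower, against 27.6% of all genes, 7.72% higher and 19.9% lower.

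Among the heat-inducible genes 6 of the 13 tested were called higher and 2 lower. Hspa8, which also uncoats clathrin vesicles, had 1147, 854, 877 and 816 CPM in labelled sham samples Xin, 4, 10 and 18. The added libraries S1 to S7 gave 660, 689, 747, 537, 627, 777 and 815 CPM, so that the groups only just missed each other. Its log2 fold change was 0.55 ± 0.13 (edgeR's quasi-likelihood test, adjusted p = 0.00545). Hspb8, a partner of the autophagy factor Bag3, rose by 0.52 on the log2 scale, Dnaja1 by 0.46 and Hspd1 by 0.38. Hsp90aa1, the stress-inducible cytosolic Hsp90, rose by 1.21 ± 0.44 from an average of 10.5 to 21.9 CPM, but its groups overlapped and it lost the call in 6 of 11 fits that each left out 1 sample.

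Hsph1, the Hsp110 exchange factor of Hsp70, went the other way. It had 159, 284, 264 and 246 CPM in labelled sham samples Xin, 4, 10 and 18. The added libraries S1 to S7 held 347, 368, 426, 478, 367, 394 and 383 CPM. Every added value lay above every labelled one, with a log2 fold change of -0.61 ± 0.14 (edgeR's quasi-likelihood test, adjusted p = 0.00428). Hspa1b was likewise lower in labelled sham, at 35.2 to 63.7 CPM against 72.1 to 211 CPM (log2 fold change -1.12 ± 0.32, adjusted p = 0.0132 by the same test). The highest added value of Hspa1b came from library S1, and without S1 and S2 its difference was -0.76 on the log2 scale with an adjusted p of 0.0232 by edgeR's quasi-likelihood test. Dnajb1, the cytosolic DnaJ partner induced with it, had a difference of -0.15 ± 0.14 (adjusted p = 0.408).

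Outside the heat-inducible list the widest decrease was in Dnajc27, a DnaJ protein with a Rab-like GTPase domain. It had 11.2, 18.8, 18.1 and 31.7 CPM in labelled sham samples Xin, 4, 10 and 18. In the added libraries S1 to S7 it had 90.7, 91.2, 81.7, 87.9, 88.8, 85.04 and 73.3 CPM. The groups were separated by more than the range within either, with a log2 fold change of -1.96 ± 0.23 (edgeR's quasi-likelihood test, adjusted p = 8.9e-05), and the SNC samples, at 14.6 to 38.0 CPM, again sat with the labelled sham.

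The ER list had 0 genes higher and 2 lower of 9: Hspa13, an Hsp70 of the ER and secretory membranes, at -0.69 ± 0.20, and Dnajb9, a BiP co-chaperone, at -0.30 ± 0.11. BiP itself had a difference of -0.03 ± 0.09 and Hsp90b1 of -0.07 ± 0.10 on the log2 scale, with adjusted p of 0.838 and 0.6 in edgeR's quasi-likelihood test. Of the 9 mitochondrial genes Hspa9 (mortalin, which pulls proteins into the matrix) rose by 1.18 ± 0.34 and Hspd1 rose, while Dnajc11, a cristae-organising protein, fell by 1.10 on the log2 scale. Hspa9 also varied widely within the groups, at 38.1 to 106 CPM in labelled and 18.0 to 62.9 CPM in added sham.

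The remaining calls were Hspbap1 (1.09 ± 0.28), Dnajc25 (0.75 ± 0.27), the testis-enriched Hsp70 gene Hspa2 (0.73 ± 0.18), Dnajb6 (0.42 ± 0.14), an inhibitor of polyglutamine clumping, and the Hsp70 exchange factor Hspbp1 (0.40 ± 0.13) among the higher ones. The lower ones were Hspa12b (-1.35 ± 0.35), the small heat shock protein Hspb6 (-0.91 ± 0.31), Hspa12a (-0.76 ± 0.18), Dnajc14 (-0.65 ± 0.16) and Dnajb2 (-0.59 ± 0.14), a neuronal DnaJ protein that passes clients to the proteasome. Calls of 15 of the 23 genes held when any 1 sample was left out. In the other alternatives in which they were tested Hspb1, Dnajc27, Hspa12b, Hspa1b and Dnajc11 were called throughout, but Hspa1b lost its call without labelled sham sample 4 (-0.94) and without sample 10 (-0.93). Without libraries S1 and S2 again 23 genes were called, 13 higher and 10 lower.

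**Figure D2:**
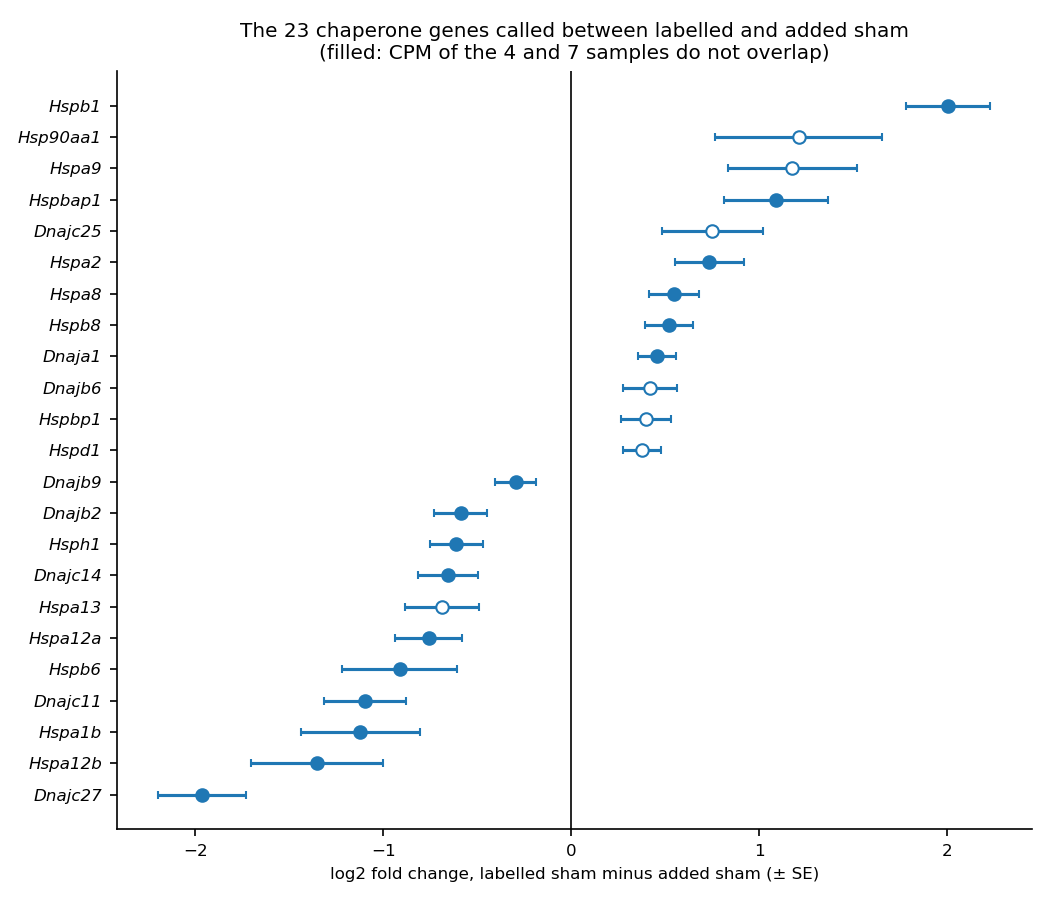
Log2 fold change of labelled sham minus added sham (horizontal axis, points with bars of 1 SE) for the 23 chaperone genes called at an adjusted p of 0.05. Filled points mark genes whose CPM in the 4 labelled and 7 added samples do not overlap, with Hspb1 at 2.01 at the top and Dnajc27 at -1.96 at the bottom.

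Genes that work with the chaperones moved too. Of 37 partner genes tested, 17 were called higher and 6 lower, beside 16.5% and 24.2% of all genes. The higher ones included all 8 subunit genes tested of the cytosolic chaperonin TRiC, Tcp1 and 7 Cct genes. Cct6a rose by 0.64 ± 0.09 and Cct7 by 0.52 ± 0.10. The Hsp70 exchange factor Bag1 rose by 0.72 ± 0.12, the Hsp90 kinase adaptor Cdc37 by 0.78 ± 0.15 and the ubiquitin ligase Stub1 by 1.23 ± 0.34. Heat shock factor Hsf1 was lower (-1.07 ± 0.21), as were the ER Hsp110 gene Hyou1 (-1.14 ± 0.16) and the cytosolic quality control factor Bag6 (-1.25 ± 0.16). All 9 injury genes tested were higher, among them Gadd45a (2.25 ± 0.23), Atf3 (2.06 ± 0.28) and Gap43 (1.47 ± 0.17), and their summed level was 3419 to 7827 CPM against 844 to 1544 CPM. Summed glial markers ranged from 628 to 1479 CPM in labelled and from 145 to 1614 CPM in added sham, with 0 of 9 called. Immune and vascular markers stayed between 8.26 and 42.6 CPM in both sets, with Cldn5 at 0 throughout, and Ptprc was called lower. Immediate early genes were called higher in 4 and lower in 2 of 13. Of 5 neuron markers 3 were called higher, with a median of 0.50, and their summed level was 6419 to 8810 CPM in labelled against 4743 to 5611 CPM in added sham. What part these differences have in the chaperone values was not tested.

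Hspb1 and Dnajc27 differed under each neuron type name used in both sets. The sets were clustered apart, and clusters of the same name did not share all markers. Mrgprb4 was a marker of the labelled NP-like cluster, but in the added libraries of an unnamed cluster and not of the NP-like one. S100a16 and Kcnv1 were markers of a labelled NF-like cluster of 85 cells and not of the added NF-like cluster. Hspb1 averaged 1735 ± 303 CPM in labelled against 753 ± 151 CPM in added NF-like neurons (SD, n = 3 and 5). In nonpeptidergic (NP-like) neurons it averaged 1065 ± 109 against 138 ± 63.7 CPM (n = 3 and 7). In SST-like neurons, named from a list that includes somatostatin (Sst), it averaged 1919 ± 618 against 458 ± 161 CPM (n = 3 and 6). Dnajc27 averaged 20.2 ± 4.64 against 82.2 ± 3.75 CPM in NF-like neurons and 22.4 ± 11.7 against 90.3 ± 18.4 CPM in NP-like neurons. In neither gene did the labelled and added samples overlap in any of the 3 types. With the type name as a term in the fit, which does not hold the neuron population fixed, 31 genes were called. Of these 19 were higher and 12 lower, against 54.8% of all genes called. Hspb1 then differed by 2.23 on the log2 scale, Dnajc27 by -1.90, Hsph1 by -0.47 and Hspa8 by 0.24.

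Sprr1a-low neurons were also compared alone, since added sham held no others. In the 3 labelled sham samples with at least 3 such cells, 15 genes were called, 9 higher and 6 lower, against 30.4% of all genes. Hspb1 differed by 1.29 ± 0.22 (edgeR's quasi-likelihood test, adjusted p = 0.00232) and Dnajc27 by -1.48 ± 0.24 (adjusted p = 0.00181 by the same test). Hspa2 had a difference of -0.0027, and the difference of Hsph1 was not called. This comparison was added after the data had been seen.

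Nerve crush was compared with labelled sham at each time point over all labelled neurons of a sample, crushed and spared together. A response limited to crushed neurons would be diluted by the spared ones here. With edgeR's quasi-likelihood test 0 of 67 chaperone genes were called at 1, 3 or 7 days, as were 0 of the 14241 genes tested (0% called). On the 3 days an unadjusted p under 0.05 was reached by 5, 1 and 0 chaperone genes, against 8.73%, 4.17% and 3.34% of all genes. The median log2 fold change of the family was -0.056, -0.0016 and -0.0045 on the 3 days, beside -0.0061, -0.0049 and -0.0060 over all genes. The injury genes did not separate the groups either, with 0 of 9 called on each day and medians of -0.118, -0.125 and -0.166. Their summed level was 3419 to 7827 CPM in labelled sham and 3219 to 5482 CPM in SNC samples. A response already present in labelled sham would not show in this comparison. DESeq2 called 1 chaperone gene, at 1 day, where it called 17 of all 14241 genes.

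That gene was Hsp90aa1. It had 30.5, 18.1, 28.9 and 10.3 CPM in sham samples Xin, 4, 10 and 18. The 1 day samples 13, 16, 17-1 and 17-2 had 8.13, 9.52, 4.25 and 7.02 CPM, all below every sham sample. The log2 fold change was -1.64 ± 0.36, with an adjusted p of 0.519 in edgeR's quasi-likelihood test and of 0.0123 in DESeq2. The other 17 alternatives gave adjusted p between 0.192 and 0.964. Sham sample 18 and all 1 day samples were reverse transcribed in 2020 and the other 3 sham samples in 2019, and with the year as a term the difference was -0.85. The sham values of 2019 were 18.1 to 30.5 CPM. The 7 day samples, which fall in both years, had 21.5, 14.0 and 16.3 CPM in 2019 and 12.8 and 8.71 CPM in 2020. Sham has 1 sample of 2020 and the 1 day group 0 of 2019, so year and crush can hardly be told apart at 1 day.

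At 1 day 0 of the 13 heat-inducible genes had a difference above 0, and their median was -0.20. Some other lists also lay mostly below 0, with 7 of 37 partner genes (median -0.15), 1 of 5 neuron markers (-0.26) and 2 of 9 ER genes (-0.06) above it. Others did not, with 4 of 9 mitochondrial genes (-0.010) and 19 of 41 DnaJ genes (-0.035) above 0. Immediate early genes had 9 of 13 above 0 (median 0.16), and immune and vascular markers 3 of 4 (0.26). Hspe1, the chaperonin's small partner, stood at -0.49 ± 0.16, Hspa8 at -0.34 ± 0.13 and Hsp90ab1, which is not on that list, at -0.31 ± 0.12, all with an adjusted p of 0.535 in edgeR's quasi-likelihood test. Dnajb9 stood at 0.29 ± 0.11 with the same adjusted p. Hspb1 stood at -0.13 ± 0.17, -0.24 ± 0.18 and -0.19 ± 0.16 on the 3 days and BiP at -0.06 ± 0.08, 0.12 ± 0.09 and -0.04 ± 0.08. Glial markers had a median of -0.12 at 1 day, -1.41 at 3 days and -1.504 at 7 days, with 0 of 9 called. Limma on cell means moved the median of all genes to 0.21 at 1 day and 0.24 at 7 days, so directions of small differences depend on the weight of cells.

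**Figure D3:**
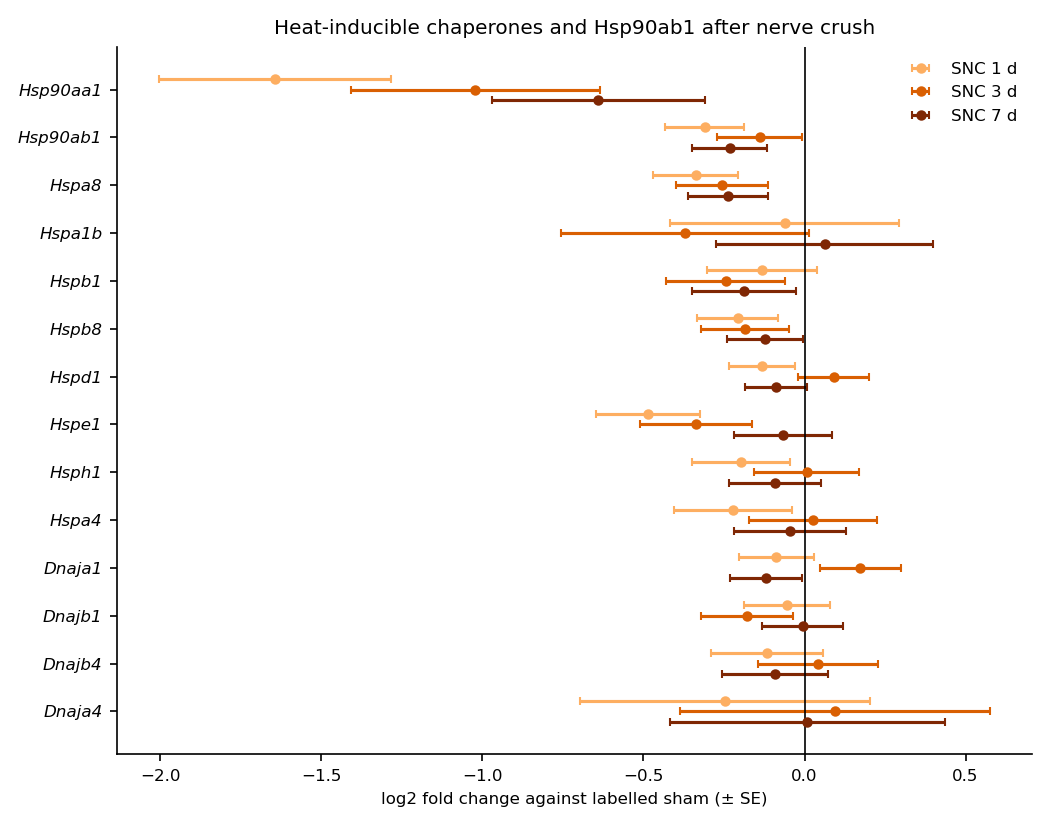
Log2 fold change against labelled sham (horizontal axis, points with bars of 1 SE) at 1, 3 and 7 days after SNC for the 13 heat-inducible chaperone genes tested and Hsp90ab1. Hsp90aa1 at 1 day, at -1.64, lies farthest from 0, and none of the 42 values was called by edgeR's quasi-likelihood test.

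Neurons of the same sample were then compared by their level of the injury gene Sprr1a. Cells with at least 100 CPM were called Sprr1a-high (413 labelled cells) and those under 10 CPM Sprr1a-low (282), and 235 cells in between were left out. Samples Xin and 17-1 had fewer than 3 low cells, which left 14 samples. The low class was not free of other injury genes. Atf3 had 144 to 294 CPM in low and 629 to 943 CPM in high neurons. The added libraries held 0 Sprr1a-high cells of 503, which allows a share of up to 0.596%, so neither this contrast nor its difference from the labelled one could be run there. This bound covers counting error only.

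Hspb1 was higher in the Sprr1a-high neurons of 14 of 14 samples. Its lowest, median and highest levels were 2020, 2432 and 3237 CPM in high neurons. In low neurons they were 1045, 1258 and 1702 CPM, so the classes did not overlap even between samples. The ratio within a sample ran from 1.34 to 2.25, and the log2 fold change was 0.97 ± 0.08 (edgeR's quasi-likelihood test with the sample as a block, adjusted p = 2.02e-08). In the 3 sham samples 4, 10 and 18 the ratios were 2.25, 2.16 and 1.99.

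Most other called genes were lower. With 25 of 65 genes called, 6 higher and 19 lower, the total matched the background of 38.9% of all genes, of which 20.2% were higher and 18.7% lower. With the same sign in at least 80% of samples there were 3 higher and 16 lower chaperone genes, beside 13.6% and 15.3% of all genes. The median log2 fold change was -0.09 over the family and 0.01 over all 11794 genes.

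Among the higher genes Hspa2 had 17.9, 38.1 and 56.3 CPM (lowest, median and highest) in high neurons. In low neurons it had 7.22, 19.4 and 25.1 CPM, and high exceeded low in 13 of 14 samples (log2 fold change 0.96 ± 0.14). Dnajb5, a DnaJ protein of the cytosol, was higher in 14 of 14 samples, by 0.74 ± 0.12. Dnajc6 (auxilin, which brings Hspa8 to clathrin coats) rose by 0.47 ± 0.18, Hspa4l by 0.26 ± 0.06 and Dnajb6 by 0.14 ± 0.04, each in 11 of 14 samples.

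Hsph1 led the lower genes by significance. It had 157, 207 and 248 CPM in high neurons. In low neurons it had 181, 260 and 314 CPM, and it was lower in high neurons of 14 of 14 samples (-0.31 ± 0.04; edgeR's quasi-likelihood test, adjusted p = 1.67e-05). Hspb11, which despite its name is a part of the ciliary transport complex, was also lower in 14 of 14 samples (-0.34 ± 0.07), with medians of 54.8 and 72.9 CPM. Hspa13 was lower in 13 of 14 (-0.36 ± 0.06), and Dnajb4 (-0.36 ± 0.08) and Dnajc27 (-0.56 ± 0.14) in 12 of 14. Within the mitochondrial list 5 of 9 genes fell and 0 rose, beside 18.7% lower and 20.2% higher among all genes. The 5 were Hspd1 in 14 of 14 samples (-0.18 ± 0.06), its partner Hspe1 (-0.25 ± 0.05), Dnaja3 (-0.30 ± 0.12) and the import motor genes Dnajc15 (-0.20 ± 0.04) and Dnajc19 (-0.15 ± 0.05). With the cluster as a term in the fit, described below, these 5 were not called. In the heat-inducible list 1 of 13 genes rose and 5 fell, Dnajb1 (-0.23 ± 0.07) among them, and in the ER list 0 of 9 rose and 2 fell. These counts stand beside the same shares of all genes. Hspa8 (0.08 ± 0.07), Hspa1b (0.08 ± 0.14), Hspb8 (0.00 ± 0.07) and Hsp90ab1 (-0.01 ± 0.08) were not called.

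**Figure D4:**
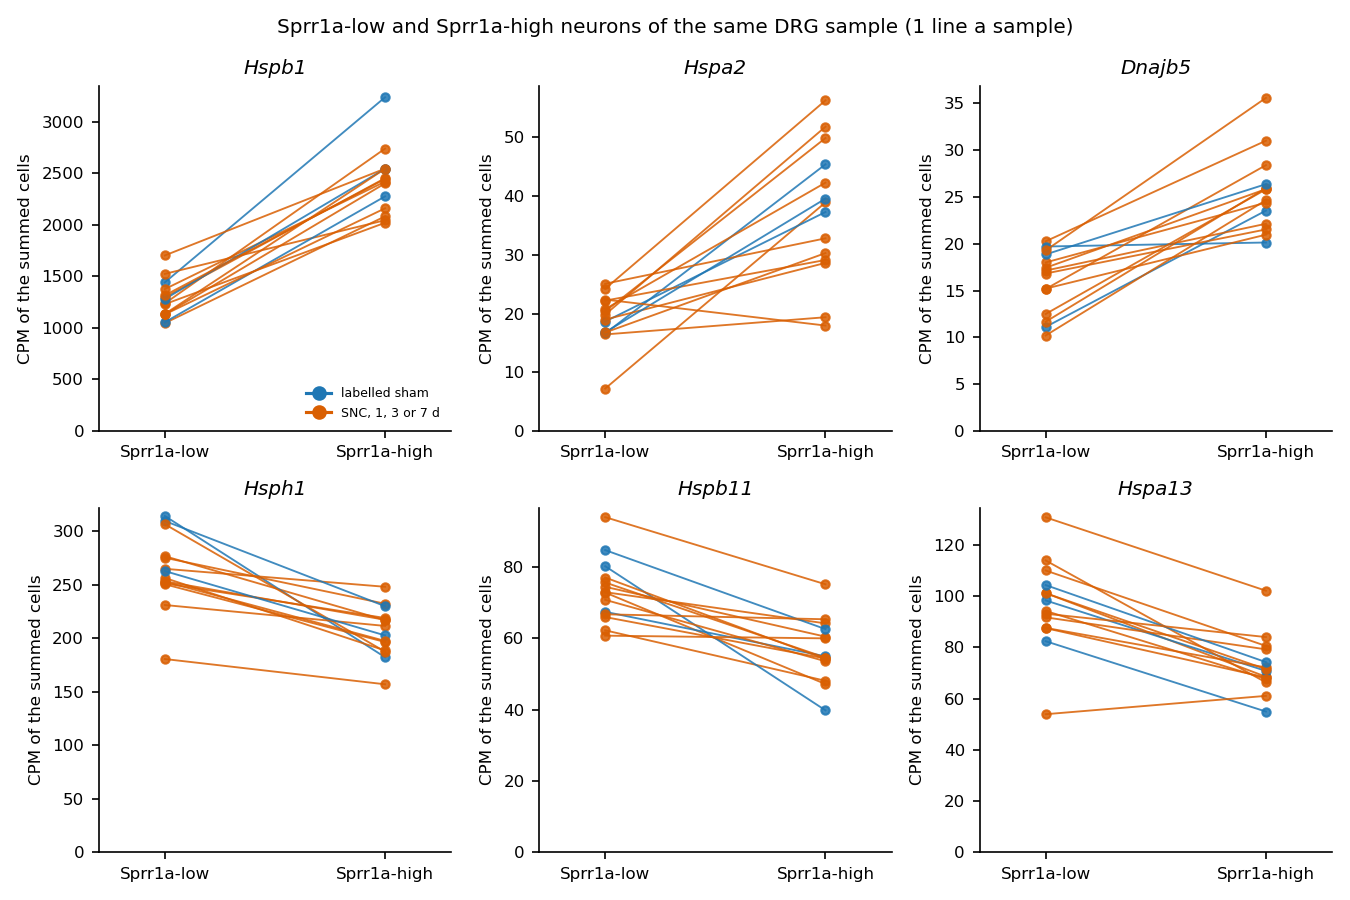
CPM of the summed cells (vertical axis, starting at 0) in Sprr1a-low and Sprr1a-high neurons of the same sample, 1 line for each of 14 samples (blue, labelled sham; orange, SNC). Every line rises for Hspb1 and Dnajb5 and falls for Hsph1 and Hspb11, and 1 line goes against the others for Hspa2 and for Hspa13.

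Of the partner genes 7 rose and 6 fell of 36. Cryab (1.72 ± 0.23), the small heat shock protein alpha-B crystallin, whose symbol lies outside the rule, and Bag2 (1.37 ± 0.14), a Hsp70 exchange factor, rose most, while the ER stress factor gene Ddit3 (-0.53 ± 0.08), the mitochondrial Hsp90 gene Trap1 (-0.29 ± 0.06) and the Hsp70 to Hsp90 adaptor Stip1 (-0.24 ± 0.04) fell. All 9 injury genes tested rose, which the choice of classes by Sprr1a brings about in part. Of 8 glial markers Mbp alone was called, 0.65 ± 0.15 higher.

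The classes differed in cell type. Sprr1a-high cells made up 73.3% of PEP1-like and 70.7% of PEP2-like neurons but 4.31% of PEP3-like and 4.41% of NP-like neurons. The 16 Sprr1a-low PEP2-like cells were shallow, with a median of 6375 UMIs against 174995 UMIs in the 130 high ones, and their part in the result was not tested on its own. With the 44 labelled cells under 20000 UMIs left out and the others thinned to that number, 11 of 49 genes were called, 4 higher and 7 lower, against 32.4% of all genes. With the cluster as a term in the fit 7 genes were called, 3 higher and 4 lower, against 13% of all genes. They were Hspb1 (0.38 ± 0.11; edgeR's quasi-likelihood test, adjusted p = 0.0156), Dnajb5 (0.64 ± 0.20), Dnajb9 (0.29 ± 0.10), Dnajb2 (-0.53 ± 0.10), Hspb11 (-0.51 ± 0.12), Hsp90ab1 (-0.40 ± 0.12) and Hsph1 (-0.30 ± 0.08). In sham samples alone Hspb1 (1.18) and Hspa2 (1.32) were called, against 5.6% of all genes, and SNC samples alone gave 20 calls of 65 genes, against 32.7% of all genes. The Sprr1a effect did not differ detectably between SNC and sham samples, with 0 of 65 chaperone genes and 0 of all 11794 genes called by edgeR's quasi-likelihood test, 0 chaperone genes with an unadjusted p under 0.05 (4.12% of all genes), and 0 of all genes called by DESeq2; this comparison was added after the data had been seen.

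The Sprr1a contrast in SNC samples and the contrast of the sham sets share no sample, so their calls can be set side by side. Of the 20 genes called by Sprr1a and the 23 called between sham sets 8 were common, 40% of the one and 34.8% of the other. Over all genes 40.6% were called between the sham sets and 32.7% by Sprr1a in SNC samples alone, so the overlap was near the share of genes called in either contrast and is given only as a description. Of these 8, Hspb1, Hspa2 and Dnajb6 were higher and Dnajc27, Hsph1, Hspa13 and Dnajc11 lower in both, and Hspd1 had opposite signs.

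Neuron types were described in clusters made without the chaperone genes and named from marker genes. The labelled cells gave PEP1-like (187), PEP2-like (184) and PEP3-like (116) peptidergic nociceptors, NF-like (176), SST-like (129), NP-like (68) and cold-sensing TRPM8-like (28) neurons, and 42 cells with glial genes were left unnamed. In the added libraries NF-like (97), NP-like (76) and SST-like (28) neurons could be named and 302 cells could not, 136 of them with glial genes. A gene passed as a marker at 1.5 times its mean in the other cells and in at least 25% of cells. Of the labelled SST-like cells 72 formed a cluster in which Nppb, Il31ra and Osmr passed but Sst did not. Of the labelled NF-like cells 85 formed a cluster in which Nefh, Nefl, Ntrk3, S100a16 and Kcnv1 passed. Nefm, Pvalb and Ntrk2 did not pass there. Among the 42 unnamed labelled cells 6 glial markers passed, but so did Trpm8, Foxp2 and Cdh8. The TRPM8-like values leave these 42 cells out. The names are rebuilt from markers and may differ from those of the study, and a type set against the others is a description without a test.

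Of the 67 genes 35 had their highest mean in NF-like neurons, 35 to 37 under other clusterings and 33 when medians over cells replaced means over samples. The same share over all genes was not computed, so this count is not shown to be particular to chaperones. NF-like cells were also deeper, with median UMIs of 2.21 and 1.87 times those of their own samples in the 2 labelled clusters. The genes with the widest ranges, among those that reached 10 CPM in a type, were mostly low ones. Hspb3, a small heat shock protein known from muscle and motor nerve, averaged 16.1 ± 8.99 CPM in TRPM8-like neurons (SD, n = 5 samples) and 1.26 ± 1.63 CPM or less in every other named type. Dnajc22 averaged 14.3 ± 6.75 CPM in NF-like (n = 15) and 0.413 ± 0.724 CPM in PEP1-like neurons (n = 16), and the added libraries gave 16.3 ± 8.50 CPM in NF-like (n = 5) and 0.351 ± 0.612 CPM in NP-like neurons (n = 7). Hspb6, the small heat shock protein Hsp20, averaged 18.6 ± 15.7 CPM in NF-like and 3.55 ± 2.30 CPM in PEP1-like neurons. Its added values were 40.8 ± 12.3 CPM in NF-like and 6.96 ± 5.71 CPM in SST-like neurons.

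Other NF-leaning genes were Dnajc21, a ribosome assembly factor, at 61.2 ± 22.0 CPM against 18.5 ± 7.57 CPM in PEP2-like neurons, auxilin (Dnajc6) at 29.6 ± 11.9 against 10.7 ± 4.52 CPM in PEP3-like neurons, and the synaptic vesicle protein Dnajc5 at 22.2 ± 4.33 against 7.15 ± 3.43 CPM in TRPM8-like neurons. In 15 of 15 samples Dnajc6 and Dnajc5 were higher in NF-like neurons than in the remaining cells. In added libraries Dnajc21 had 120 ± 29.6 CPM in NF-like and 37.7 ± 9.78 CPM in NP-like neurons. Hspa2 was highest in TRPM8-like (49.1 ± 16.4 CPM) and NF-like neurons (43.8 ± 13.8 CPM), which do not differ beyond their spread, and lowest in SST-like neurons (10.95 ± 5.32 CPM).

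The abundant genes ran differently. Hspb1 was highest in PEP2-like (2763 ± 358 CPM) and PEP1-like neurons (2666 ± 446 CPM), exceeding the remaining cells in 16 of 16 samples each, and the 2 types do not differ beyond their spread. TRPM8-like (2053 ± 313 CPM), NF-like (1739 ± 252 CPM), SST-like (1710 ± 348 CPM), PEP3-like (1433 ± 404 CPM) and NP-like neurons (1186 ± 322 CPM, exceeding the remaining cells in 0 of 8 samples) followed. PEP2-like and PEP1-like neurons also had the highest shares of Sprr1a-high cells, 70.7% and 73.3%, and the injury gene Gal was a marker of both. No peptidergic type was named in the added libraries, so type and injury state cannot be told apart for these 2 types. Labelled NF-like and SST-like neurons did not differ in Hspb1 beyond their spread. In added libraries Hspb1 was highest in NF-like, then in SST-like and lowest in NP-like neurons. Hsp90ab1 (1298 ± 128 CPM) and Hspa8 (677 ± 103 CPM) were lowest in NF-like neurons, which exceeded the remaining cells in 1 of 15 samples each. Hspb8 was lowest there too, at 365 ± 31.9 CPM against 612 ± 49.4 CPM in SST-like neurons. Hspa1b was highest in SST-like neurons of both sets, at 65.0 ± 32.3 CPM in labelled and 230 ± 130 CPM in added libraries. The labelled value does not differ from those of most other types beyond its spread, and by the median over cells Hspa1b was highest in NP-like neurons there, at 30.02 CPM beside 30.00 CPM in SST-like neurons.

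**Figure D5:**
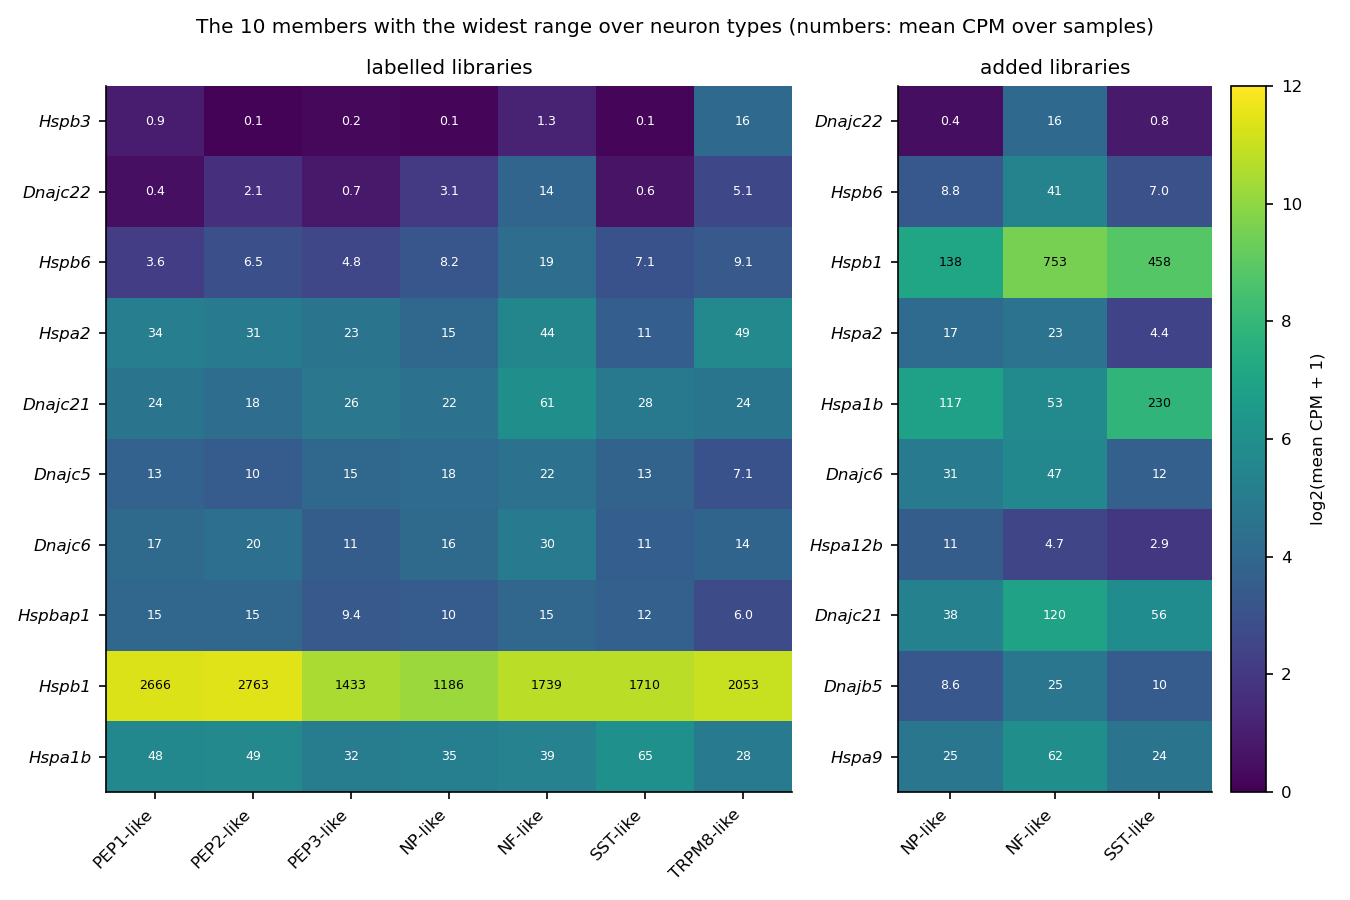
Mean CPM over samples (printed in each cell; colour, log2 of mean CPM + 1) of the 10 chaperone genes with the widest range over named neuron types among those that reach 10 CPM in a type, in labelled (left) and added libraries (right). Hspb1 is highest in PEP2-like neurons at 2763 CPM, and Dnajc22, Hspb6 and Dnajc21 are highest in NF-like neurons of both sets.

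Time alone was looked at in the added libraries. Days 1 to 7 against day 0 gave 0 of 67 chaperone genes and 0 of 16161 genes called (0% called) by edgeR's quasi-likelihood test, with 3 chaperone genes and 9.3% of all genes at an unadjusted p under 0.05, and DESeq2 called 0 chaperone genes. When the day 0 library S7 was left out, 5 genes were called against 11.9% of all genes: Hspb1 (0.74 ± 0.13), Dnajc22 (7.88 ± 0.95), Dnajb5 (1.302 ± 0.318), Dnajc21 (0.97 ± 0.21) and Dnajc12 (-0.61 ± 0.15). Day 0 then rested on S1 and S2, the 2 libraries with 0 NF-like cells. Dnajc22 had 0 and 0.0632 CPM in S1 and S2, 5.62 CPM in S7 and 6.17 to 15.8 CPM in the 4 later libraries. Without S1 and S2 instead, 0 were called.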

How the data were processed

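Single neurons were sequenced as described above. Per the study's methods and processing notes, cells were separated by barcode, trimmed reads were mapped by STAR (rat, Rnor_6.0), featureCounts gave genes and UMI-tools removed duplicates; the values the authors deposited are whole UMI counts per gene and cell, without normalization. The genes, lists and comparisons were chosen with earlier results of these data known, so no pattern here is independent support for them.

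Cells with at least 500 genes, 1000 UMIs and a share of the 13 Mt- genes under 5% were kept (37 mitochondrial genes would leave 1288 cells and 66 members). Counts were summed per DRG sample, or per sample and Sprr1a class with at least 3 cells. The 2 libraries of DRG sample S were summed. Sums were tested with edgeR 4.0.16 (R 4.3.3; quasi-likelihood test, TMM, filterByExpr), adjusted by Benjamini-Hochberg over all genes tested and called at 0.05. SE is the log2 fold change over the square root of F. Levels are plain CPM of the sums, over samples with at least 3 cells of a type. Clusters followed the study's settings (2000 variable genes less 4 members, 40 principal components, resolution 0.5). A type was named from marker lists, or, by a rule added after the data were seen, from another list when that list gave 2 or more of the 10 leading genes and the best list none. No doublet caller was run on hand-picked cells. The fits were tested on simulated data. Alternatives were DESeq2 1.42.0, its size factors, no filter, limma 3.58.1 on mean log2(CPM + 1) over cells, cells thinned to 20000 UMIs (44 labelled and 10 added cells were shallower), and others given in the closing section.

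Named genes are the 15 highest, the heat-inducible and ER lists, up to 8 called genes at each end of a comparison with groups apart or signs shared by 80% of samples, the 10 widest over types, and those beside the 1 CPM limit. Other genes named were chosen after their values were seen. Python 3.11.15 and matplotlib 3.10.9 were used. No per-sample column was left out.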

Additional observations from a re-analysis of the deposited data

Results flagged for a closer look

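In 18 of 176 groups of 4 to 7 samples (44 named genes), the highest or lowest sample stood apart from the others by Dixon's test; chance flags about 1 in 20 groups. Sham sample Xin, the one with the fewest UMIs, had low Hspd1 (319 CPM, others 419 to 437) and Dnajb4 (73.5 CPM, others 147 to 159) and high Dnajc1 (36.7 CPM, others 22.2 to 23.0). Sham sample 18 had high Dnajb1 (214 CPM, others 155 to 165). Added library S4 had low Dnaja2 (239 CPM, others 275 to 294) and Dnajb1 (147 CPM, others 206 to 230) and high Hspa4 (303 CPM, others 224 to 250) and Hspb6 (33.8 CPM, others 12.7 to 18.7), and it held the highest share of NF-like cells at 51.2%. Added library S1 had high Hspa1b (211 CPM, others 72.1 to 123). Added library S7 had high Dnajb11 (84.6 CPM, others 59.1 to 69.8), Dnaja3 (56.0 CPM, others 35.9 to 42.8), Dnajc5 (23.8 CPM, others 11.2 to 16.6) and Hspb3 (5.66 CPM, others 0 to 2.36).

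Among crush samples, 1 day sample 17-1 had high Dnajb5 (33.0 CPM, others 20.3 to 22.4) and 1 day sample 16 low Dnajc11 (27.6 CPM, others 43.8 to 44.5). At 7 days sample 19-1 had high Hspb6 (41.8 CPM, others 4.84 to 8.82) and low Hspbap1 (10.0 CPM, others 14.5 to 16.0), with 41.7% NF-like cells, and sample S had high Dnajc3 (58.5 CPM, others 55.0 to 56.0). The causes of these values were not tested.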

How the results depend on the processing

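Calls after crush stayed at 0 on each day under every alternative run (each sample left out in turn: 0 to 0) but DESeq2, which called 1 gene at 1 day. These alternatives included samples 17-1 with 17-2 and 19-1 with 19-2 merged, the year and date of reverse transcription, and clusters with glial genes left out. Between the sham sets the 23 calls became 9 against day 0 alone and 15 in Sprr1a-low cells alone, where Hspa2 turned to -0.0027; with 1 sample left out they ran from 17 (without sample 10) to 25, and the other alternatives gave 18 to 31. For added days 1 to 7 minus day 0, leaving out 1 library gave 0 to 5 calls. The 25 Sprr1a calls became 11 with thinned cells, 10 with limma on cell means (3 higher, 7 lower), 7 with clusters as a term, 2 in sham samples alone and 14 without the sample block; with 1 sample left out they ran from 20 to 26. Of those 25, 18 held in every such fit, and Hspb1 alone in every other alternative. With clusters as a term Dnajb1 (0.0091), Hspa14 (0.1025), Dnajc19 (0.0056) and Dnajc6 (-0.008) changed sign. The cause was not tested, beyond the smaller sums that thinning and fewer samples give. No paired analysis was possible by replicate number because these follow accession order only; the date of reverse transcription, which some sham and 7 day samples share, was run as a block and gave 0 chaperone calls, and the sample was the block within Sprr1a classes. Depth limits Hspb2, Hspb3 and Hspa12b, at 1 to 3 CPM, most.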
